A study of Sus scrofa with 6 samples.

Results

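The high-ranking drug-only regions are 506 stretches of chromatin that carried a strong ATAC-seq peak in every deoxyshikonin library and no called peak in any control library. ATAC-seq finds accessible chromatin by letting the Tn5 transposase cut and tag DNA that nucleosomes leave exposed. The libraries came from porcine (Sus scrofa) intestinal epithelium, which the series describes as intestinal epithelial cells. There were 3 control libraries, whose label names no agent, and 3 libraries of cells stimulated with deoxyshikonin, which belongs to the shikonin family of plant naphthoquinones. The sources used here give no dose, duration, cell line, animal of origin or vehicle. Nothing in the labels says whether libraries of 1 group are separate cultures. A p-value therefore measures only the spread among these 6 libraries, and that spread may be technical.

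The regions were chosen by rule from the peak lists themselves. Peaks of the 6 lists that overlapped by at least 1 bp were merged, which gave 51099 regions. A region was drug-only when all 3 deoxyshikonin lists and none of the 3 control lists had a peak in it. That held for 6065 regions, or 11.9% of all, and the reverse for 185, or 0.362%. In each deoxyshikonin list all peaks were ranked by the authors' −log10 q, a measure of how far a peak stands out from its background, and the rank was turned into a percentile. A drug-only region was high-ranking when its best peak stood at or above the 60th percentile in all 3 lists. The 60th percentile corresponded to a −log10 q of 10.9, 10.6 and 11.6 in deoxyshikonin replicates 1 to 3. The 506 regions were 8.34% of the drug-only regions and 0.990% of all regions. Of the other 5559 drug-only regions, 712 missed the percentile in 1 list, 1403 in 2 lists and 3444 in all 3. Because presence and rank chose the regions, their levels are given below as a description, with no test.

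Accessible chromatin marks promoters, enhancers and other stretches where nucleosomes have been moved aside and transcription factors can reach the DNA. In the intestinal epithelium, the single cell layer between gut contents and tissue, such sites control genes of the barrier and of the response to microbes and stress. In bulk samples, more cells open at a site and more cutting per cell cannot be told apart. Positions are on contigs with LUXX01 names, and the genome build is not stated in any source used here. No annotation or sequence of these contigs was used, so the regions carry no gene, promoter or motif, and markers of epithelial or other cell types could not be looked up.

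Relative depth, given as the genome-wide mean pileup of tags, lay between 1.89 and 2.57 in control replicates 1 to 3 and between 1.46 and 2.06 under deoxyshikonin. The control lists held 17169 to 25888 peaks and the deoxyshikonin lists 33295 to 39281. Total read numbers are unknown. Height is used below for the number of tags at a peak's summit divided by the genome-wide pileup of its library.

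Among the high-ranking regions the fold enrichment over local background, as deposited by the authors, was moderate. Its median was 6.74 in deoxyshikonin replicate 1, with a range of 3.53 to 11.8. The median was 7.39 in replicate 2, with a range of 4.12 to 14.6, and 7.41 in replicate 3, with a range of 3.89 to 13.5. The rule asked for a high rank in all 3 lists, which limits how far the values of 1 region can differ between libraries. Different regions differed little as well, with quartiles of 6.07 and 7.56 in replicate 1. The ratio of a region's highest to its lowest fold enrichment had a median of 1.19. It reached 1.5 or more in 13 of 506 regions and was 1.97 at most. Deoxyshikonin replicate 1, the deepest of the 3 treated libraries, gave the lowest fold enrichment in 304 regions (60.1%), and replicate 2, the shallowest, gave the highest in 229 (45.3%). Whether depth plays a part in that order was not tested.

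Tags at the summit numbered 20 to 71 in deoxyshikonin replicate 1, 18 to 58 in replicate 2 and 21 to 71 in replicate 3. The exact 95% Poisson interval of the lowest of these, 18 tags, runs from 10.7 to 28.4, and that of the median of 30 tags in replicate 1 from 20.2 to 42.8. These intervals cover counting error only, since tags are not known to be independent molecules. With such counts, ratios near 1.19 between libraries lie within counting error.

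Most of the high-ranking regions lay close to the threshold. The lowest of the 3 percentiles was between 60 and 70 in 293 regions, between 70 and 80 in 163, between 80 and 90 in 43 and above 90 in 7. Drug-only regions became rarer as the rank rose. Of all regions whose lowest percentile was from 60 to 70, whatever the controls showed, 11.0% were drug-only. The share was 6.30% from 70 to 80, 1.68% from 80 to 90 and 0.312% above 90. At the edge the ranks hardly differed. The 4 regions just inside were on LUXX01019345.1 at 3328513 to 3328902, LUXX01024205.1 at 2657969 to 2658455, LUXX01091791.1 at 1930838 to 1931776 and LUXX01047362.1 at 883084 to 883945, with lowest percentiles from 60.05 to 60.11. The 4 just outside were on LUXX01056314.1 at 1257 to 1783, LUXX01077746.1 at 121184 to 121732, LUXX01069901.1 at 941673 to 942303 and LUXX01017974.1 at 1254439 to 1255028, with lowest percentiles from 59.89 to 59.95.

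Ordered by mean percentile, the first regions ranked near the top of their lists. In the first, on LUXX01054881.1 at 4247818 to 4248749, fold enrichment was 8.11, 8.15 and 8.65 in deoxyshikonin replicates 1 to 3. Its summit held 70, 58 and 71 tags, which is a height of 34.0, 39.7 and 36.2. This was the tallest of all 506 regions by mean height, 36.7, and its local background was 3.93 times the genome-wide level. The third, on LUXX01056594.1 at 20100 to 20939, was lower, at a height of 22.9, 26.7 and 23.5. Its local background was lower too, at 1.57 times the genome-wide level. Its fold enrichment of 11.8, 11.0 and 12.3 was higher than that of the first in all 3 libraries. The second, on LUXX01077104.1 at 449061 to 449999, resembled the first, with a height of 34.5, 35.6 and 30.6 and a fold enrichment of 8.87, 8.33 and 8.45.

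**Figure D1:**
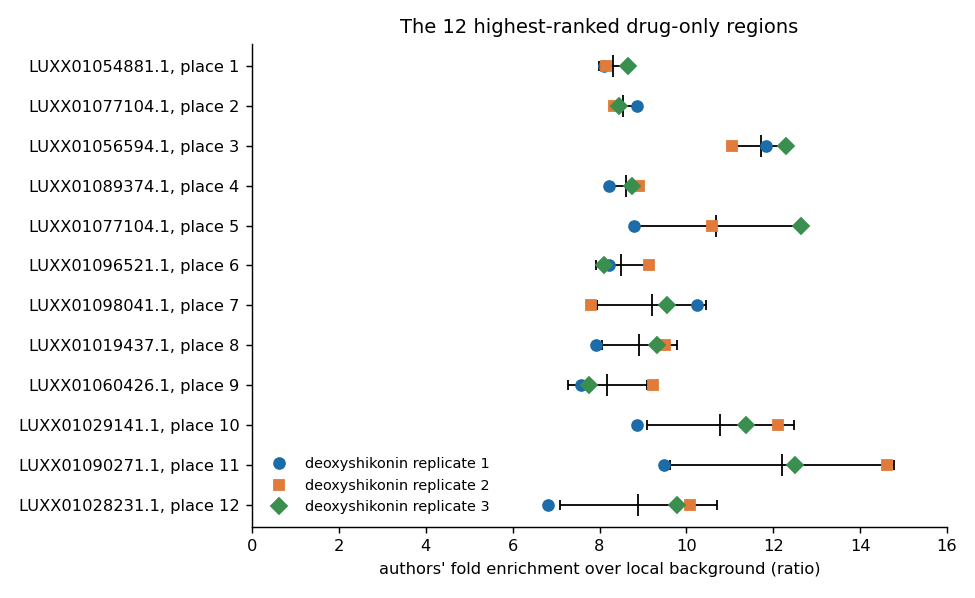
Authors' fold enrichment (ratio, horizontal axis) of the 12 high-ranking drug-only regions with the highest mean percentile, 1 row each, named by contig and place in the ranking. Points are the 3 deoxyshikonin libraries, the upright tick is their mean and the bar is the SD (n = 3); the first 4 regions varied little between libraries, and the region on LUXX01090271.1 ranged from 9.49 to 14.6.

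Places 4 to 9 had similar levels. The regions on LUXX01089374.1 (2608453 to 2609086), LUXX01077104.1 (2738852 to 2739704) and LUXX01096521.1 (5749506 to 5750231) had mean fold enrichments of 8.62 ± 0.369, 10.7 ± 1.92 and 8.49 ± 0.571 (SD, n = 3 each). Those on LUXX01098041.1 (1441169 to 1441663), LUXX01019437.1 (112102 to 112943) and LUXX01060426.1 (1193468 to 1194097) had 9.20 ± 1.25, 8.92 ± 0.867 and 8.18 ± 0.903 (SD, n = 3 each). The rank was least even at LUXX01098041.1, which stood at percentile 98.0 in replicate 1 and 85.4 in replicate 2. At the last 3 of the 12 regions the lowest fold enrichment came from replicate 1 each time. It was 8.87, 12.1 and 11.4 in replicates 1 to 3 on LUXX01029141.1 at 265465 to 266054, and 6.81, 10.1 and 9.77 on LUXX01028231.1 at 358211 to 358992. It was 9.49, 14.6 and 12.5 on LUXX01090271.1 at 1 to 240, which is the first base of that contig, and no other region of any list lay on it.

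The highest mean fold enrichments belonged to regions with a low local background rather than to the tallest summits. A low background raises fold enrichment by its definition. LUXX01090271.1 led with 12.2 ± 2.58 (SD, n = 3), followed by the region on LUXX01056594.1 with 11.7 ± 0.633. The next were LUXX01059218.1 at 954 to 1556, with 11.1 ± 0.557, and LUXX01006222.1 at 176512 to 177036, with 10.9 ± 0.915 (SD, n = 3 each). Their mean heights were 18.6, 24.3, 16.8 and 17.5, against a median of 16.2 over all 506 regions. Local background was 1.00, 1.57, 1.00 and 1.10 times the genome-wide level there, against a median of 1.75 over the 506. A ratio of 1.00 is the lowest the measure can take, and no other region lay on LUXX01090271.1 or LUXX01059218.1. Whether the low values reflect quiet chromatin was not tested.

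Replicates differed most at 4 regions. On LUXX01000536.1 at 679 to 1246 the fold enrichment was 6.87, 8.94 and 13.5 in deoxyshikonin replicates 1 to 3. On LUXX01051700.1 at 3417297 to 3417731 it was 6.87, 8.53 and 12.1, so that replicate 3 was highest at both. Replicate 2 was highest at the other two, LUXX01045031.1 at 531417 to 531913 with 6.51, 11.7 and 9.18, and LUXX01042402.1 at 59316 to 60098 with 7.87, 11.0 and 6.31. The summit counts behind them were 20 to 39 tags. The most even regions were LUXX01066655.1 at 2877680 to 2878325, LUXX01047013.1 at 2003415 to 2004039, LUXX01070331.1 at 1293706 to 1294545 and LUXX01015702.1 at 5221553 to 5222272, where the highest value was 1.01 to 1.02 times the lowest. Their mean fold enrichments were 6.34, 6.76, 7.28 and 7.16.

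High-ranking regions were wider and taller than the other drug-only regions, and narrower and lower than regions with a peak in all 6 lists. The median width of a merged region was 591 bp, against 477 bp for the other drug-only regions and 798 bp for the 13209 shared regions, as those with a peak in all 6 lists are called here. The median height was 14.6, 18.5 and 15.8 in deoxyshikonin replicates 1 to 3. It was 9.73, 11.6 and 10.2 at the other drug-only regions and 17.5, 21.2 and 19.4 at shared regions. The rule on rank used values from the same peaks, so these differences are no finding. The 4 widest were LUXX01091677.1 at 50381 to 51746 (1366 bp), LUXX01050369.1 at 2989780 to 2991103 (1324 bp), LUXX01049178.1 at 344854 to 346134 (1281 bp) and LUXX01034237.1 at 2432538 to 2433781 (1244 bp). Their mean fold enrichments were 6.12, 6.60, 6.50 and 7.15, so the widest regions were not the most enriched.

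**Figure D2:**
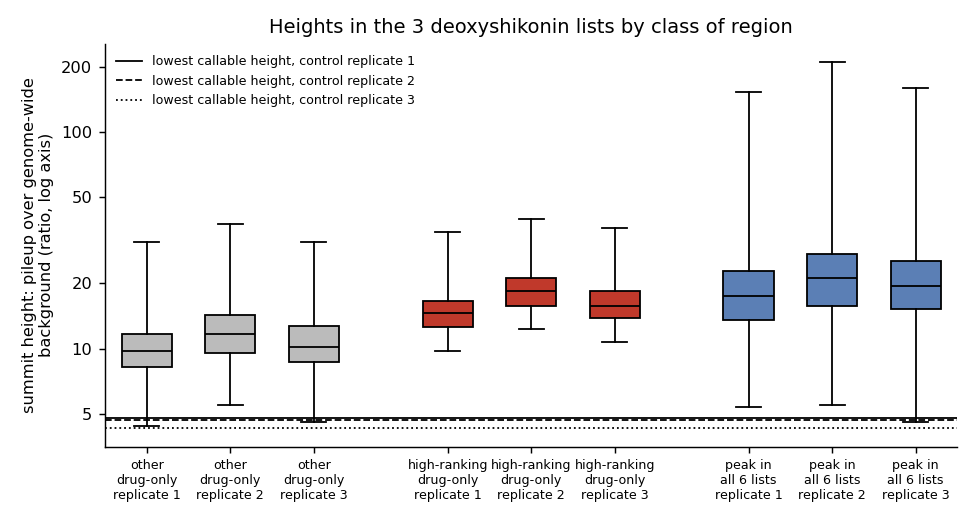
Summit height (tags at the summit over the genome-wide pileup of the library, log axis) in deoxyshikonin replicates 1 to 3, for 5559 other drug-only regions, 506 high-ranking drug-only regions and 13209 regions with a peak in all 6 lists. Boxes give the quartiles, the line the median and whiskers the lowest and highest value; the 3 horizontal lines mark the lowest height that each control list could call (4.77, 4.68 and 4.29), and every high-ranking region lies above them.

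Summits fell at nearly the same place in the 3 treated libraries, a property the rule did not use apart from requiring overlap. Between 2 lists the median distance between summits of a region was 33.5 bp for replicates 1 and 2, 33 bp for replicates 1 and 3 and 33 bp for replicates 2 and 3. The distance averaged over the 3 pairs was at most 100 bp in 424 of 506 regions (83.8%), with a median of 43.3 bp. The same share was 71.1% at the other drug-only regions, with a median of 60.7 bp, and 75.5% at shared regions, with a median of 46.7 bp. Region width bounds this distance, and median width was 591 bp, 477 bp and 798 bp at high-ranking, other drug-only and shared regions. Median tags at the summit in replicate 1 were 30, 20 and 36 in the same order. Whether width and tags play a part in these shares was not tested. The order of heights among the 506 had a Spearman correlation of 0.671, 0.679 and 0.639 for the 3 pairs of lists, against 0.869 to 0.875 among the 13209 shared regions. For −log10 q, the value that set the rank, it was 0.371, 0.361 and 0.314 among the 506 and 0.798 to 0.815 among shared regions. The order within the 506 was thus less alike between libraries than that of shared regions, in a set chosen from a narrower range of −log10 q. These correlations are across regions, which are not independent replicates.

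Every high-ranking region was tall enough to have been called in the controls had its height been the same there. At genome-wide background, a control list called a summit from 9 tags in replicate 1, 10 in replicate 2 and 11 in replicate 3, which is a height of 4.77, 4.68 and 4.29. At its mean height under deoxyshikonin, the median region would have held 30.6, 34.6 and 41.6 tags in control replicates 1 to 3, and the lowest 21.3, 24.1 and 29.0. The mean height was 3.40 times the highest of the 3 calling limits at the median, and 2.37 to 7.69 times over all 506. With the raised local background of each region taken from the treated libraries, the median was 2.43 times, the lowest 1.83, and 499 regions were at least 2 times above the limit. The heights come from the peaks that chose the regions, so these ratios describe the margin and do not measure a fold change. A height in the controls was not measured, because no peak was called there.

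A library that took no part in the choice gave a reading that the choice had not used. It is not known to be a separate culture from the libraries that chose. When deoxyshikonin replicate 1 was left out, 759 regions were high-ranking in the other 2 treated lists and absent from all controls, and 749 of them (98.7%) had a peak in replicate 1. For replicate 2 it was 796 of 812 (98.0%) and for replicate 3 690 of 698 (98.9%). Regions that passed the same percentile in the other treated lists and had a control peak were called in 99.7%, 99.5% and 99.96% of cases. Being found again thus did not set the drug-only regions apart. Their rank held less well: 67.1%, 62.4% and 72.5% of the chosen regions reached the 60th percentile in the library left out, with a median percentile of 68.2, 66.8 and 71.7 among those called. The regions with a control peak reached it in 90.4%, 86.4% and 94.6% of cases. That group also holds the strongest regions of the series.

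The controls differed in the same reading. When control replicate 1 was left out, 591 regions were high-ranking and absent from the other 2 controls, and 85 of them (14.4%) had a peak in replicate 1. For control replicate 2 it was 14 of 520 (2.69%), and for control replicate 3 it was 228 of 734 (31.1%). Regions past the same percentile that had a peak in another control were called in 96.7%, 90.5% and 98.7% of cases. These hold the strongest regions of the series and were not matched in strength to the drug-only regions. The share of drug-only regions fell from 11.0% at a lowest percentile of 60 to 70 to 0.312% above 90. Where a library left out had called a peak, the peak was weak, with a median percentile of 17.3, 21.8 and 22.9 in its own list. Only 3 of 591, 0 of 520 and 10 of 734 regions reached the 60th percentile in control replicates 1 to 3. Each count comes from 1 library and its regions are not independent, so the 0 sets no limit for the control group. The lists of control replicates 1 to 3 held 21404, 17169 and 25888 peaks, at a depth of 1.89, 2.13 and 2.57. List length is itself an outcome of peak calling in the same libraries. The part of depth and list length in these shares was not tested. Without deoxyshikonin replicate 2 the rule found 812 regions in place of 506, the largest count of the 6 such choices.

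**Figure D3:**
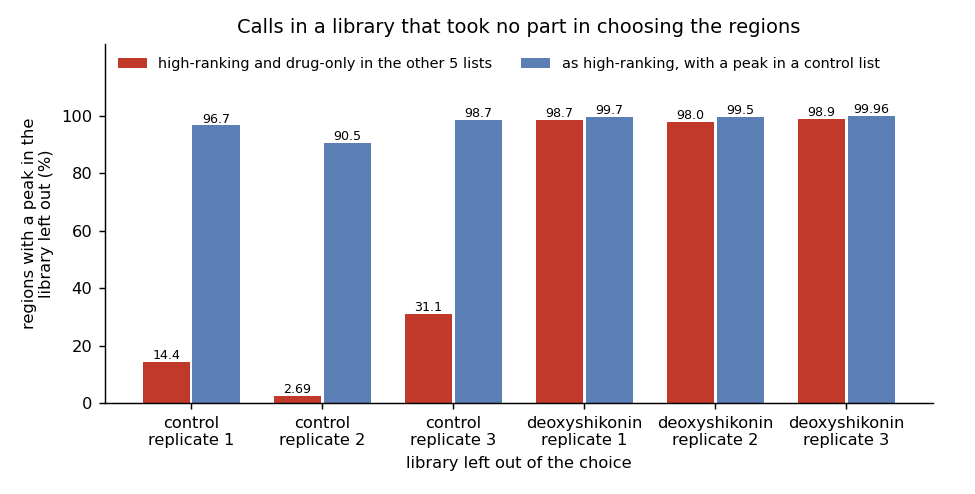
Share of regions (percent, vertical axis) with a called peak in a library that was left out when the regions were chosen, for each of the 6 libraries. Red bars are regions that were high-ranking and drug-only in the other 5 lists. Blue bars are regions past the same percentile that had a peak in a control list, and they were not matched to the red bars in strength. Red bars reach 98.0% to 98.9% in the deoxyshikonin libraries and 2.69% to 31.1% in the controls.

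With the groups exchanged, the same rule found 7 regions. These had a peak in all 3 control lists at or above the 60th percentile and none in a deoxyshikonin list, out of 185 control-only regions (3.78%) and of 5703 regions that high in all 3 control lists (0.123%). High-ranking drug-only regions were 5.03% of the 10052 regions that high in all 3 deoxyshikonin lists. The lists differ in length, so a percentile does not mark the same strength in both groups.

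High-ranking regions lay on 356 contigs, of 4046 with at least 1 region, and most of these 356 held only 1 of them. On 257 contigs there was 1, on 70 there were 2, on 16 there were 3 and on 13 there were 4 or more. A shared region lay within 10000 bp of 40 of the 506 (7.91%). For the other drug-only regions that share was 11.8%, and for shared regions, looking for another shared region, it was 18.4%. The median distance to the nearest shared region was nevertheless about the same for both kinds of drug-only region, 67176 bp and 66176 bp, and 31658 bp between shared regions. The median distance to the nearest further drug-only region was 69069 bp for high-ranking and 89445.5 bp for the other drug-only regions. One lay within 10000 bp of 10.9% and 8.20% of them. Within 100000 bp on either side, 139 of the 506 (27.5%) had no region with a control peak, against 23.6% of the other drug-only and 13.8% of the shared regions. These shares were not tested, since neighbouring regions on a contig are not independent.

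A few had a control peak close by. A control peak lay within 500 bp of 4 of the 506 regions: LUXX01050155.1 at 426308 to 427143, at a distance of 6 bp, LUXX01086278.1 at 2519341 to 2519725 (232 bp), LUXX01069435.1 at 470124 to 470494 (245 bp) and LUXX01018793.1 at 3339996 to 3340590 (367 bp). These were named after their values had been seen. The other 502 had none that near. The nearest other region of any kind was most often a region called in only 1 or 2 deoxyshikonin lists and no control (212 of 506, 41.9%), a class that made up 33.8% of all regions. For the other drug-only regions that share was 41.4% and for shared regions 26.3%. The nearest was a drug-only region below the rank threshold for 83 of the 506 (16.4%) and another high-ranking one for 10 (1.98%). Among the other drug-only regions those shares were 14.2% and 1.51%. The 2 classes made up 10.9% and 0.990% of all regions.

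Another high-ranking region lay within 100000 bp for 45 of the 506 (8.89%), and within 10000 bp for 4. One lay within 100000 bp of 6.80% of the other drug-only regions and of 4.49% of the shared regions. These shares were not tested either. The densest stretch of 100000 bp held 3, on LUXX01022101.1 at 983862 to 1070283, with 6 regions in all, 4 of them drug-only and none with a control peak. Their mean percentiles were 68.8, 75.5 and 75.8, so none was among the strongest. The closest pair, 5072 bp apart, was the first 2 of these, at 983862 to 984309 and 989382 to 989986. The next closest lay 6340 bp apart on LUXX01060706.1, at 720655 to 721145 and 727486 to 728203, with no other region between them. Its first region was strong, with a fold enrichment of 9.84, 10.4 and 10.0 in deoxyshikonin replicates 1 to 3, and the second was weaker, with 8.33, 7.52 and 7.43. The contig with most high-ranking regions was LUXX01096521.1, with 11 among 52 drug-only, 54 shared and 270 regions of all kinds. All but 1 of the 11 lay at 5704451 or beyond on a contig whose regions ran from 22909 to 10132685, and 8 began between 7919913 and 10123616. The share of drug-only regions that were high-ranking was 21.2% on this contig, against 8.34% over the series. The contig was picked for its count, so that share is no test.

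**Figure D4:**
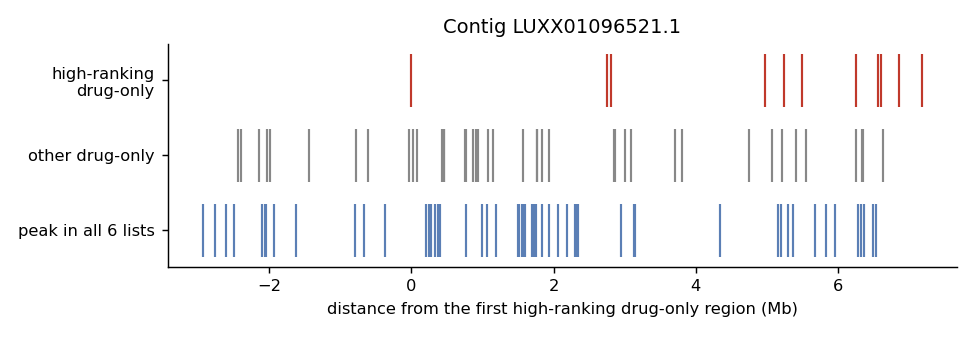
Positions of regions on contig LUXX01096521.1, as distance in Mb from its first high-ranking drug-only region. Each upright line is 1 region, in 3 rows for the 11 high-ranking drug-only regions, the other drug-only regions and the 54 regions with a peak in all 6 lists; 8 of the 11 stand in the right part of the contig, where regions of the other rows are present too.

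A few high-ranking regions sat at the start of a contig or on contigs with little else. There were 4 that began within the first 20 bp: LUXX01090271.1 at 1 to 240, LUXX01100397.1 at 17 to 385, LUXX01087203.1 at 1 to 397 and LUXX01096191.1 at 1 to 234. That is 0.791% of the 506, against 2 of the 5559 other drug-only regions and 3.86% of the shared regions. On contigs with at most 2 regions there were 12 (2.37%), against 2.00% of the other drug-only and 7.35% of the shared regions. Fold enrichment at the 4 was 7.20 to 14.6.

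The surroundings of high-ranking regions offered a comparison the rule did not use, over peaks that belonged to other regions. Treated lists had more of their further peaks near a high-ranking region than control lists. The share of a list's peaks within 10000 bp of one, peaks in the regions themselves left out, was 0.561%, 0.537% and 0.526% in deoxyshikonin replicates 1 to 3. It was 0.378%, 0.367% and 0.409% in control replicates 1 to 3. The groups did not overlap, at 0.541% ± 0.0180 and 0.385% ± 0.0220 (SD, n = 3 each), a ratio of 1.41. The two-sided exact permutation p was 0.1, the smallest that 3 libraries against 3 can give. Weaker drug-only regions add to this share by definition. With all peaks of drug-only and control-only regions left out, a step added after the data were examined, the shares were 0.464% ± 0.0187 and 0.379% ± 0.0234 (SD, n = 3 each), a ratio of 1.23, again without overlap (exact permutation p = 0.1). That step kept regions called in some but not all 3 deoxyshikonin lists and in no control, 33.8% of all regions. Their counterpart in the control lists, 6.32% of all regions, was kept too. Within 10000 bp of the other drug-only regions, whose own peaks were left out, treated lists had shares of 6.04% to 6.27%. Control lists had 5.29% to 5.70%, so full separation was seen around this class as well (exact permutation p = 0.1). The ratio there was 1.12. It still holds peaks of high-ranking and control-only regions, which 1.23 leaves out, while 1.41 holds peaks of the other drug-only regions. These ratios are over unlike sets of peaks, and their differences were not tested. Within 5000 bp the groups overlapped, at 0.200% ± 0.0138 and 0.156% ± 0.0325 (SD, n = 3 each, exact permutation p = 0.3).

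Shared regions close to high-ranking regions could be compared in height between the groups, since they had a peak in all 6 lists. Log2 heights, centred on the median of each library's shared regions, were fitted with limma over all 13209 shared regions, with Benjamini-Hochberg adjustment over all of them. At an adjusted p under 0.05, 6.68% of all shared regions were higher and 7.71% lower under deoxyshikonin. Of the 44 within 10000 bp of a high-ranking region, 7 (15.9%) were higher and 2 (4.55%) lower, and the median log2 change was 0.07, against −0.02 over all shared regions. Within 50000 bp, 34 of 280 (12.1%) were higher and 13 (4.64%) lower. Within 10000 bp of the other drug-only regions, 67 of 707 (9.48%) were higher and 42 (5.94%) lower. Whether these shares differ from the background was not tested. The counts rest on the scaling. Without centring, shared regions as a whole stood 0.25 higher on the log2 scale. There 12 of the 44 (27.3%) were higher and 0 lower (limma, also 0 lower at an unadjusted p under 0.05). Over all shared regions those shares were 12.6% and 0.545%. With the authors' fold enrichment in place of height, 2 of the 44 (4.55%) were higher and 1 (2.27%) lower. Over all shared regions those shares were 2.05% and 3.01%. The median of the 44 turned to −0.05, against −0.03 over all. On heights without deoxyshikonin replicate 2, the median of the 44 was −0.0053, against −0.017 over all. In that fit 5 (11.4%) were higher and 0 lower (limma, 3 lower at an unadjusted p under 0.05). Over all shared regions it called 4.14% higher and 4.95% lower.

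The largest rise was at LUXX01070105.1, 3574868 to 3575665, which lay 9023 bp from the high-ranking region at 3565370 to 3565844. Heights here are relative to the median over the shared regions of a library. The height was 0.394, 0.586 and 0.545 in control replicates 1 to 3 and 1.06, 1.06 and 1.03 in deoxyshikonin replicates 1 to 3. That is 1.06 higher on the log2 scale (SE 0.191, adjusted p = 1.27e-05 by limma). The next was at LUXX01072352.1, 535548 to 536457, 6525 bp from the region at 528273 to 529022. There the height was 0.424, 0.552 and 0.455 in control replicates 1 to 3 and 0.972, 0.903 and 1.08 in deoxyshikonin replicates 1 to 3, which is 1.05 higher on the log2 scale (SE 0.194, adjusted p = 2.28e-05 by limma). Both sites went from well below to about the median of shared regions, without overlap of the groups. Both kept their call with fold enrichment as the height (limma adjusted p = 0.0129 and 0.00187).

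At LUXX01027740.1, 1568238 to 1569057, the height was 0.667, 0.793 and 0.773 in control replicates 1 to 3 and 1.17, 1.32 and 1.50 in deoxyshikonin replicates 1 to 3, giving 0.83 on the log2 scale (SE 0.158, adjusted p = 3.94e-05 by limma). At LUXX01070859.1, 2564050 to 2564936, it was 0.667, 0.690 and 0.614 in control replicates 1 to 3 and 1.22, 1.00 and 1.05 in deoxyshikonin replicates 1 to 3, giving 0.73 on the log2 scale (SE 0.175, adjusted p = 0.00140 by limma). Neither passed with fold enrichment as the height (limma adjusted p = 0.218 and 0.0694).

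Both called falls were small. At LUXX01027110.1, 121058 to 122323, the height was 1.64, 1.59 and 1.61 in control replicates 1 to 3 and 1.28, 1.19 and 1.26 in deoxyshikonin replicates 1 to 3, giving −0.37 on the log2 scale (SE 0.128, adjusted p = 0.0349 by limma). At LUXX01055808.1, 2985404 to 2985915, it was 1.97, 2.103 and 1.80 in control replicates 1 to 3 and 1.50, 1.52 and 1.63 in deoxyshikonin replicates 1 to 3, giving −0.33 on the log2 scale (SE 0.122, adjusted p = 0.0499 by limma). Scaled by depth alone the changes were −0.10 and −0.06, and neither was called. With fold enrichment as the height they were −0.60 and −0.39 (limma adjusted p = 0.00591 and 0.118). The call at LUXX01027110.1 was lost without any 1 of the 6 libraries, with the change at −0.39 to −0.34. That at LUXX01055808.1 was lost without any 1 except control replicate 3, and with a replicate block (limma adjusted p = 0.0588).

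**Figure D5:**
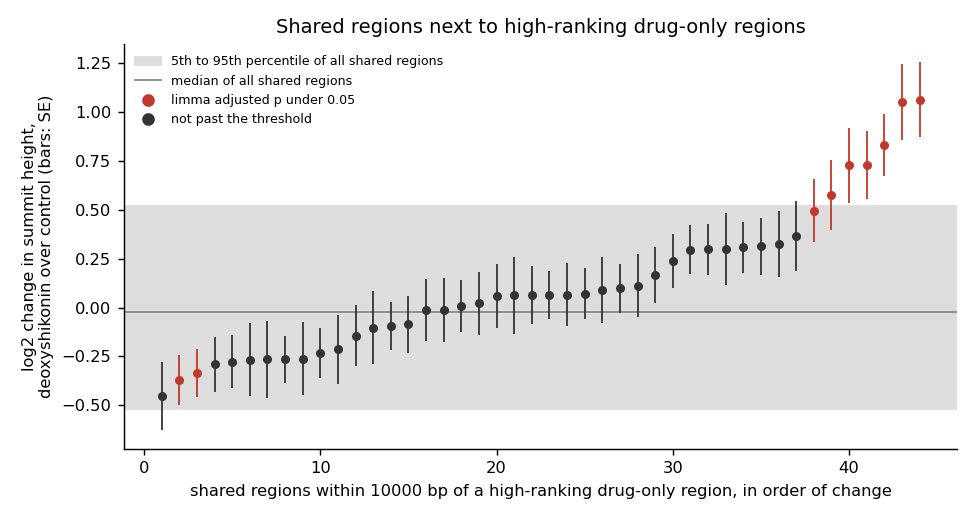
Log2 change in summit height, deoxyshikonin over control (vertical axis, after centring each library on the median of its shared regions), of the 44 shared regions within 10000 bp of a high-ranking drug-only region, in order of change. Points are limma estimates with SE bars, red where the adjusted p is under 0.05 (7 higher, 2 lower), and the grey band spans the 5th to the 95th percentile of all 13209 shared regions.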

How the data were processed

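The authors deposited 1 peak list per library in the narrowPeak layout, with no replicates pooled. The submitters' processing notes name MACS2 2.1.0, Bowtie2 2.4.2, Trim Galore 0.6.6, deepTools and bcl2fastq 2.17, while the sources used here state no settings and no genome build. Deposited values of a peak are its fold enrichment over local background (a ratio), −log10 p, −log10 q, a whole-number score near 10 times the −log10 q, and its summit. Positions are counted from 1.

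Tags and background at each summit were solved from the deposited fold enrichment, (tags + 1) / (background + 1), and the −log10 p, a Poisson tail. In 100% of peaks the solved pair gave back the deposited p to a relative 0.0001, and 100% of 4936 simulated peaks were recovered. Local backgrounds were whole multiples of 0.02 (to 0.05 of a step) in 100% of cases. The lowest background of a list was taken as its genome-wide pileup, which stands in for depth. The calling limit of a control list is the lowest number of tags that reaches its lowest −log10 p at genome-wide background.

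Libraries were grouped by title. The members and lists were chosen with earlier results of these data known. Regions named are the 12 with the highest mean percentile, 4 on either side of the threshold, 4 each with the largest and smallest ratio of fold enrichments, the 4 widest, the 4 with the highest mean fold enrichment, the densest stretches and contig, and the neighbouring shared regions with the largest called rises and falls, up to 4 each. Heights were fitted with limma 3.58.1 (trend, tested on simulated data) in R 4.3.3, in alternatives also with a replicate block, scaled by depth alone, with fold enrichment as height and without each library. Single values per library were compared by exact permutation tests. Other work used matplotlib 3.10.9, scipy 1.17.1, pandas 2.3.3 and numpy 2.4.6 under Python 3.11.15.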

Additional observations from a re-analysis of the deposited data

How the results depend on the processing

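The count of 506 regions became 994 with a percentile minimum of 50 and 213 with 70, and 867 when peaks were ranked by fold enrichment, of which 418 overlapped the 506. Omitting 1 library at a time gave 520 to 812, since fewer lists then have to meet the rule, and was highest without deoxyshikonin replicate 2. Peaks with −log10 q of at least 5 gave 582, summit windows of 100 bp either side 521, and a clear distance of 500 bp 502. The summit distance, 33.2 bp as the mean of the 3 pair medians, was 33 to 33.5 bp when each treated library was left out. The ratio of height to the calling limit, 3.40, was 2.43 with local background and 3.18 to 3.60 when each library was left out. Of shared neighbours, 7 higher and 2 lower within 10000 bp, there were 2 higher and 0 lower of 15 within 5000 bp (limma, 1 lower at an unadjusted p under 0.05), and 34 and 13 of 280 within 50000 bp. Scaling by depth gave 12 and 0 of the 44, against 12.6% and 0.545% of all shared regions. Fold enrichment as height gave 2 and 1, against 2.05% and 3.01%. There the rise at LUXX01014477.1, 2804479 to 2804985, turned from 0.58 to −0.17 on the log2 scale (limma adjusted p = 0.528). The cause was not tested. Leaving out each library gave 5 to 8 higher and 0 to 1 lower, with 0 lower without control replicates 1 and 2 and deoxyshikonin replicates 2 and 3. Over all shared regions those fits called 4.14% to 5.65% higher and 4.95% to 6.38% lower. With a replicate block there were 7 higher and 1 lower, against 6.47% and 7.41% of all shared regions. Deviations of heights from the group means correlated at −0.0137, −0.00327 and 0.00339 between libraries of the same number, so the numbers showed no pairing. The ratio of neighbouring peaks stayed above 1 in every alternative run, from 0.29 to 0.54 on the log2 scale, with 0.40 in lists of 17169 best peaks. No permutation p here can pass 0.05. Depth limits what any list can call, and it was 1.89 to 2.57 in the controls and 1.46 to 2.06 under deoxyshikonin. Absence of a control peak does not show closed chromatin.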
